A study of Mus musculus with 2 samples.

Results

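The adrenal cortex is kept as a steroid-making tissue by a small set of transcription factors, 9 of which are described here in adrenal gland tissue. Nr5a1, Nr0b1, Gata6 and Cited2 are known for the adrenal cortex. Gata4, Wt1 and Nr5a2 are known for the gonad or for progenitor cells, and Zfpm1 and Zfpm2 are cofactors of GATA proteins. The genes were chosen by symbol, though earlier results of these data were known when they were chosen. All 9 were found among the 55536 annotated genes of the tables, with 43 annotated transcripts. The RNA came from 2 female B6CASTF1/J mice aged 8 to 10 months, the F1 hybrid of a C57BL/6J and a CAST/EiJ parent, and 300 ng of total RNA with added spike-in RNA went into each library. The labels number the animals 1 (replicate 1) and 3 (replicate 2) but give both the same donor code, so that they are separate animals rests on those numbers. The labels name gland tissue and no sorting of cells. Both belong to 1 group, so there is no treated and control contrast, and no p-value was computed.

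NR5A1, also called SF-1, is a nuclear receptor that binds DNA as a single molecule and switches on the genes of steroid synthesis, and mice that lack it form neither adrenals nor gonads. NR0B1, or DAX-1, is a receptor-like protein without a classical DNA-binding domain that restrains NR5A1. GATA6 is the GATA factor of the adult mouse cortex, whereas GATA4 is that of the gonad and heart. WT1 and its partner CITED2 raise Nr5a1 in the common primordium of adrenal and gonad in the mouse embryo. NR5A2, or LRH-1, is the paralog of NR5A1 that works in ovarian granulosa cells, liver, pancreas and gut, and ZFPM1 (FOG-1) and ZFPM2 (FOG-2) bind GATA zinc fingers.

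The libraries held 40453707 expected counts in replicate 1 and 34319787 in replicate 2, where an expected count is an estimate of reads per gene that need not be whole. A count of 3, taken as the limit of detection, corresponds to 0.0742 and 0.0874 CPM (counts scaled to library size) in replicates 1 and 2. Levels are given in TPM, a relative transcript abundance that corrects for length and library size and can be compared between genes. The tissue label was checked on defining markers: all 5 cortex markers and all 7 chromaffin markers passed 1 TPM in both animals, and the cortex markers summed to 25418 and 26583 TPM in replicates 1 and 2. Cortex and medulla RNA were thus both present, and in such bulk RNA fewer cells of a type and less RNA per cell cannot be told apart. Intervals on counts are exact Poisson intervals at 95% and cover counting error only.

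The 4 adrenal factors lay above the 3 gonadal or progenitor factors in both animals. The adrenal factors summed to 320 TPM in replicate 1 and 315 TPM in replicate 2, against 3.63 and 2.73 TPM for the gonadal or progenitor factors. Mean levels ran between 8.495 and 254 TPM in the first set and between 0.635 and 1.5 TPM in the second, so the sets did not overlap. The 2 GATA cofactors lay between them, at means of 3.49 and 6.24 TPM. Of the 9 genes, 8 reached 1 TPM in both animals, and Nr5a2 did not. Among all 22015 nuclear protein-coding genes, 11996 or 54.5% reached it in both.

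**Figure D1:**
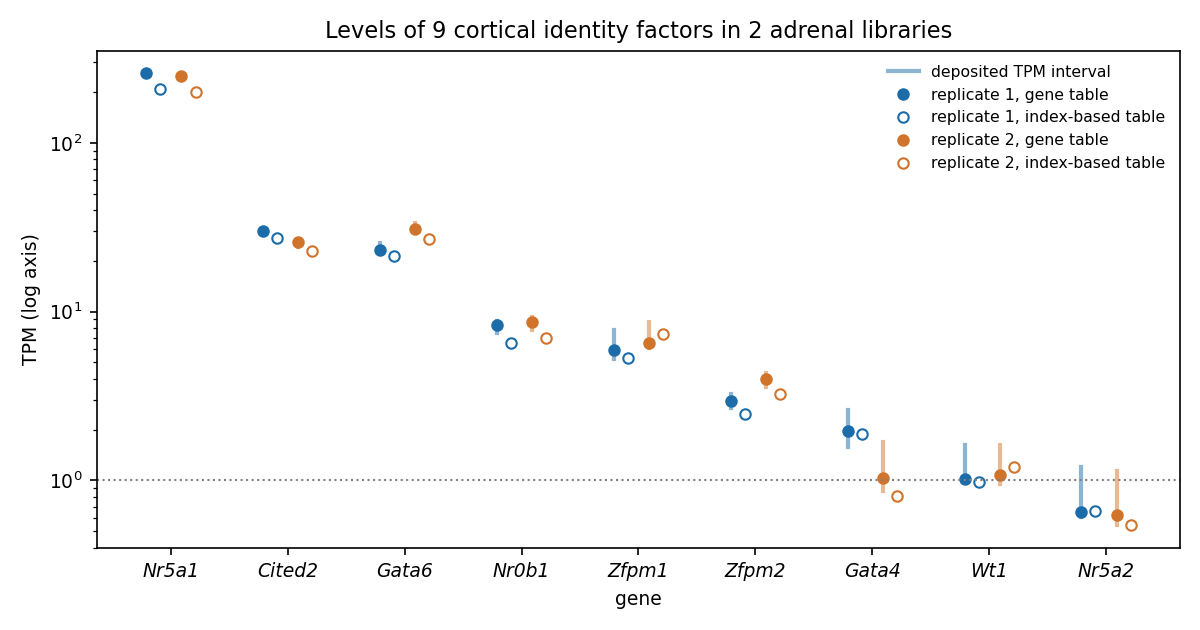
TPM (log axis) of the 9 factors in replicates 1 and 2, from the gene table (filled points) and from the index-based transcript table summed per gene (open points). Vertical lines are the deposited TPM intervals and the dotted line marks 1 TPM. Nr5a1 stands near 254 TPM, and Gata4, Wt1 and Nr5a2 lie close to the dotted line.

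Nr5a1 was the highest of the 9 by about an order of magnitude. The gene (ENSMUSG00000026751.14, chromosome 2, 38692656 to 38714542, minus strand, mm10) had 258 TPM in replicate 1 and 249.8 TPM in replicate 2, a mean of 254 ± 6.02 TPM (SD, n = 2). These levels rest on 28459 counts (28129 to 28792) and 23185 counts (22888 to 23485). Among 22015 nuclear protein-coding genes it ranked 165 in replicate 1 and 170 in replicate 2. The deposited intervals of 251 to 257 TPM and 241 to 248 TPM lie just under the TPM values because they belong to a posterior mean, which the authors list as a separate column. In the index-based table, made from the reads and a transcript index, Nr5a1 stood at 207 and 200.1 TPM in replicates 1 and 2.

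The Nr5a1 RNA began mainly at the more distal of the annotated first exons. Nr5a1-201 and Nr5a1-202 share 5 exons exactly and have the same coding exons, and they differ in a noncoding first exon whose starts lie 2308 bases apart. The exon of Nr5a1-201 spans 186 bases (38714357 to 38714542) and that of Nr5a1-202 spans 229 bases (38712006 to 38712234). Printed are some of the letters on which the split between the transcripts rests. They are read across the junction with the second exon from the GENCODE M21 transcripts, 5′ to 3′, with the bases of the first exon in capitals.
Nr5a1-201: TTCTCCTTCCGTTCAgcggacgccgcgggc
Nr5a1-202: CGGCGCGGCCAAAAGgcggacgccgcgggc
After the junction the printed bases are the same in both, and before it the exons carry different letters. Nr5a1-201 held 80.9% of the gene's TPM in replicate 1 and 78.1% in replicate 2, whereas Nr5a1-202 held 16.5% and 16.6% in the table made from alignments. The index-based table put Nr5a1-201 at a mean of 68.0% ± 1.10 (SD, n = 2), so the order of the transcripts held in both tables but the size of the share depended on the table. First exons make up 6.31% of Nr5a1-201 and 7.65% of Nr5a1-202, and reads outside them do not part these transcripts apart from the last exon, whose ends differ.

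The retained-intron transcript of Nr5a1 lay further apart in the animals than its coding transcripts. Nr5a1-203, which the annotation classes as a retained intron and which encodes no protein, had 6.64 TPM in replicate 1 (deposited interval 5.77 to 7.34) and 13.3 TPM in replicate 2 (11.9 to 14.2). It took 2.57% of the gene's TPM in replicate 1 and 5.31% in replicate 2. Its log2 ratio, replicate 1 over replicate 2 of scaled counts, was -0.92, against 0.16 for the sum of the coding transcripts. In the index-based table the values were -0.86 and 0.18. The same comparison gave -0.54 for the 3 retained-intron transcripts of Gata6 against -0.32 for its coding ones, and -0.39 against -0.32 in Zfpm2, where the index-based table gave -0.20 and -0.29. In Wt1, with 12.3 and 11.7 retained-intron counts in replicates 1 and 2, it gave -0.09 against 0.20, and 0.05 for both in the index-based table. These are single libraries on each side and have no replicate check.

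**Figure D2:**
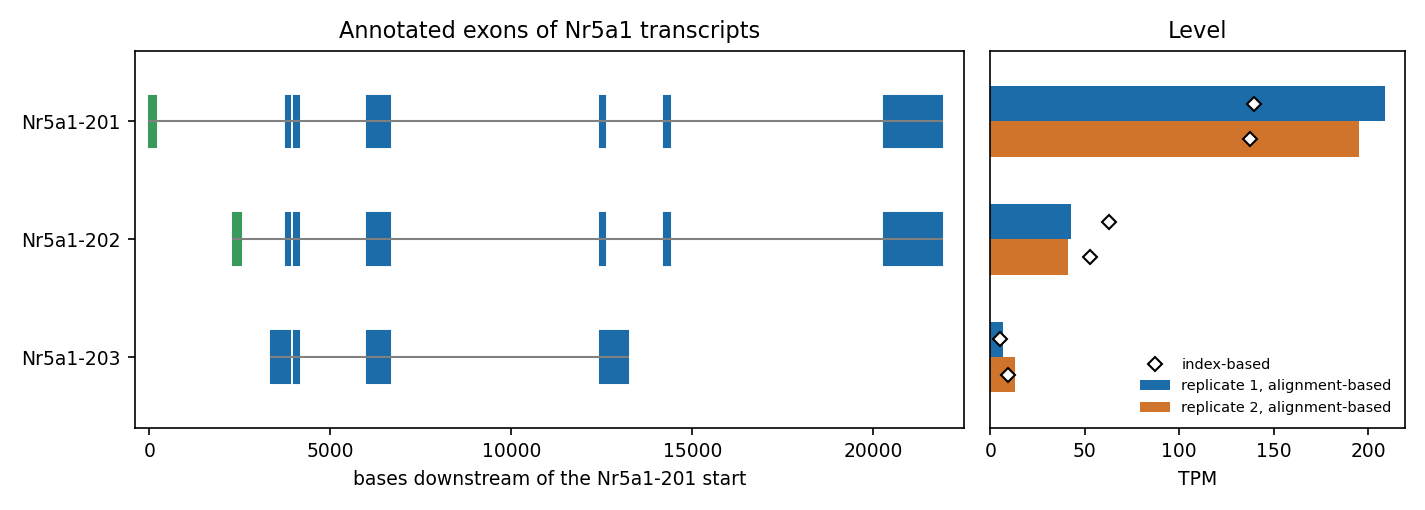
Left, annotated exons of the 3 Nr5a1 transcripts by distance in bases from the start of Nr5a1-201, with the alternative first exons in green. Right, TPM of each transcript in replicates 1 and 2 in the alignment-based table (bars) and the index-based table (diamonds): Nr5a1-201 is highest in each library and table, and Nr5a1-203 had 6.64 TPM in replicate 1 and 13.3 TPM in replicate 2.

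Nr0b1, which encodes the partner that restrains NR5A1, was measured well below Nr5a1. The gene (ENSMUSG00000025056.4, chromosome X, 86191764 to 86195947, plus strand) had 8.31 TPM in replicate 1 and 8.68 TPM in replicate 2, from 552 and 490 counts. Nr5a1 exceeded it by a ratio of 31.1 in replicate 1 and 28.8 in replicate 2. A single transcript is annotated, so no reads had to be divided between isoforms. Nr0b2, which encodes the related corepressor SHP and is best known in liver, was above Nr0b1, with 21.4 TPM in the first animal and 24.9 TPM in the second.

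The promoters of Nr0b1 and Nr5a2 are shown because one gene is a known target of NR5A1 and the other its paralog, present at a low level, and because RefSeq entries were matched for both. The table (GRCm38.p6) held entries for 4 of the 9 genes. Printed are the 250 bases before the RefSeq start, 5′ to 3′ on the gene's strand, chrX:86191525-86191774 on the plus strand for Nr0b1 and chr1:136960449-136960698 on the minus strand for Nr5a2. Capitals mark the matches, on either strand, to 3 of the 7 spellings searched, the others having no match in these windows. The core nuclear receptor site is AGGTCA. The site for GATA factors is AGATAA. The box bound by the general transcription machinery is TATAAA.
Nr0b1: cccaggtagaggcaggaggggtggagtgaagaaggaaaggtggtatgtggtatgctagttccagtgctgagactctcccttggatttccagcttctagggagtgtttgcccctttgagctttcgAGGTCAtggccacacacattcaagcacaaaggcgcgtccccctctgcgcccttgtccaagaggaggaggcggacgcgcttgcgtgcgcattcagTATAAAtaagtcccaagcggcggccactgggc
Nr5a2: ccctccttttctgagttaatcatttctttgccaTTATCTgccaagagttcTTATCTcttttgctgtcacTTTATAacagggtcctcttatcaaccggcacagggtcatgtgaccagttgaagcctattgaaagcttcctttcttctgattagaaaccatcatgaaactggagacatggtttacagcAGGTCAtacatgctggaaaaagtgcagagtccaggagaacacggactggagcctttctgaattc
In Nr0b1 AGGTCA begins at -126 and TATAAA at -32 from the start. In Nr5a2 AGGTCA begins at -64, AGATAA occurs on the reverse strand at -217 and -200, and TATAAA on the reverse strand at -181. Of all 32851 promoters in the table, 14.0% hold AGGTCA, 9.99% AGATAA and 12.4% TATAAA within the same 250 bases. These are shares of real promoters and not a rate expected from base composition, which was not computed. The longer site CAAGGTCA is in 1.33% of promoters and its variant CAAGGCCA in 1.99%. The E-box CACGTG is in 6.02% and the GC box GGGCGG in 32.7%. A second RefSeq entry of Nr5a2, chr1:136953631-136953880 on the minus strand, had 0 matches to any of the 7 and is not printed. The printed bases of Nr5a2 lie before the start of Nr5a2-201 at 136960448. Nr5a2-202, the highest Nr5a2 transcript of the index-based table in both animals, starts at 136949562, and neither entry covers its start. These matches are descriptions of letters and no binding was measured.

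Gata6 and Cited2 stood side by side and their order turned between the animals. Gata6 (ENSMUSG00000005836.10, chromosome 18, 11052064 to 11085635, plus strand) had 23.1 TPM in replicate 1 and 30.9 TPM in replicate 2. Cited2 (ENSMUSG00000039910.10, chromosome 10, 17723218 to 17725674, plus strand), whose product links WT1 and other factors to the acetyltransferases CBP and p300, had 30.1 and 26.0 TPM. Their means of 27.0 ± 5.49 and 28.0 ± 2.89 TPM (SD, n = 2) differed by less than the spread between the animals.

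The Gata6 signal lay mainly in the full-length coding transcript. Gata6-201 held 81.7% of the gene's TPM in replicate 1 and 80.6% in replicate 2, and in the index-based table a mean of 75.3% ± 2.31 (SD, n = 2). The 3 retained-intron transcripts together held 11.8% and 13.1% in replicates 1 and 2. The noncoding gene 1010001N08Rik starts on the opposite strand and overlaps the first 504 bases of Gata6. It had 13.9 TPM in replicate 1 and 19.2 TPM in replicate 2, lower in the same animal as Gata6, with log2 ratios of -0.25 and, for Gata6, -0.34. The labels name a directional library kit, but the sources used here do not say if strand was used in counting, so reads in the overlap could belong to either gene.

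Cited2 was nearly all Cited2-201. That spliced transcript held 95.9% of the TPM in replicate 1 and 94.0% in replicate 2, and the unspliced-form coding transcript Cited2-203, which has a single exon and the same 807 coding bases, held 3.41% and 4.42%. Of its family, Cited4 had 6.67 and 4.61 TPM and Cited1 0.840 and 0.570 TPM in replicates 1 and 2. On scaled counts the log2 ratio, replicate 1 over replicate 2, was 0.61 for Cited4 with a counting interval of 0.33 to 0.89. Cited1 rests on 27 and 15 counts, and its interval of -0.27 to 1.70 spans 0.

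Gata4, Wt1 and Nr5a2, the gonadal or progenitor factors, were near 1 TPM. Gata4 (ENSMUSG00000021944.15, chromosome 14, 63198922 to 63271692, minus strand) had 1.96 TPM in replicate 1 and 1.04 TPM in replicate 2, from 167 counts (143 to 194) and 83 counts (66.1 to 103). Wt1 (ENSMUSG00000016458.14, chromosome 2, 105126529 to 105173616, plus strand) had 1.02 and 1.07 TPM, from 92 counts (74.2 to 113) and 74 counts (58.1 to 92.9). Nr5a2 (ENSMUSG00000026398.14, chromosome 1, 136842571 to 136960448, minus strand) had 0.650 and 0.620 TPM, from 86 counts (68.8 to 106) and 60 counts (45.8 to 77.2). All 3 were above the limit of 3 counts in both animals, so they were detected at a low level and not absent. Their neighbours in the order of levels, Gata4 and Wt1, could not be ranked, since Gata4 was higher in replicate 1 and Wt1 in replicate 2.

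Nr5a1 and Gata6 were far ahead of their paralogs Nr5a2 and Gata4. The NR0 pair went the other way, with Nr0b1 at 8.31 and 8.68 TPM and Nr0b2 at 21.4 and 24.9 TPM in replicates 1 and 2. Nr5a1 exceeded Nr5a2 by a ratio of 397 in replicate 1 and 403 in replicate 2. Gata6 exceeded Gata4 by 11.8 and 29.7, a mean of 20.7 ± 12.7 (SD, n = 2), so the size of that ratio varied by more than 2 times between the animals and its direction did not. These ratios depend on telling the paralogs apart in sequence. The longest run of letters shared by any transcripts of Nr5a1 and Nr5a2 is 20 bases, that of Gata6 and Gata4 is 18 bases. No stretch of 50 bases is shared in either pair. Only identical letters were searched, so how reads with mismatches were divided between paralogs was not tested. The shared run of Nr5a1 and Nr5a2 is printed to show how short the identity is. It lies in coding exon 4 of Nr5a1 (chromosome 2, 38708452 to 38708471) and exon 6 of Nr5a2 (chromosome 1, 136940962 to 136940981).
Nr5a1 and Nr5a2: ttgaagcagcagaagaaagc

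Within the GATA family, 4 of 6 genes reached 1 TPM in both animals. After Gata6 came Gata2, an endothelial and blood factor, at 10.1 and 13.1 TPM in replicates 1 and 2, and Gata3, a factor of chromaffin and sympathetic cells, at 8.22 and 10.1 TPM. Gata5 had 2 and 3 counts. Gata1, the erythroid and megakaryocyte factor, had 0 counts in replicate 1, which allows up to 0.0742 CPM, and 1 count in replicate 2. On scaled counts the log2 ratios of Gata6, Gata2 and Gata3 were -0.34, -0.44 and -0.35, whereas that of Gata4 was 0.85.

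**Figure D3:**
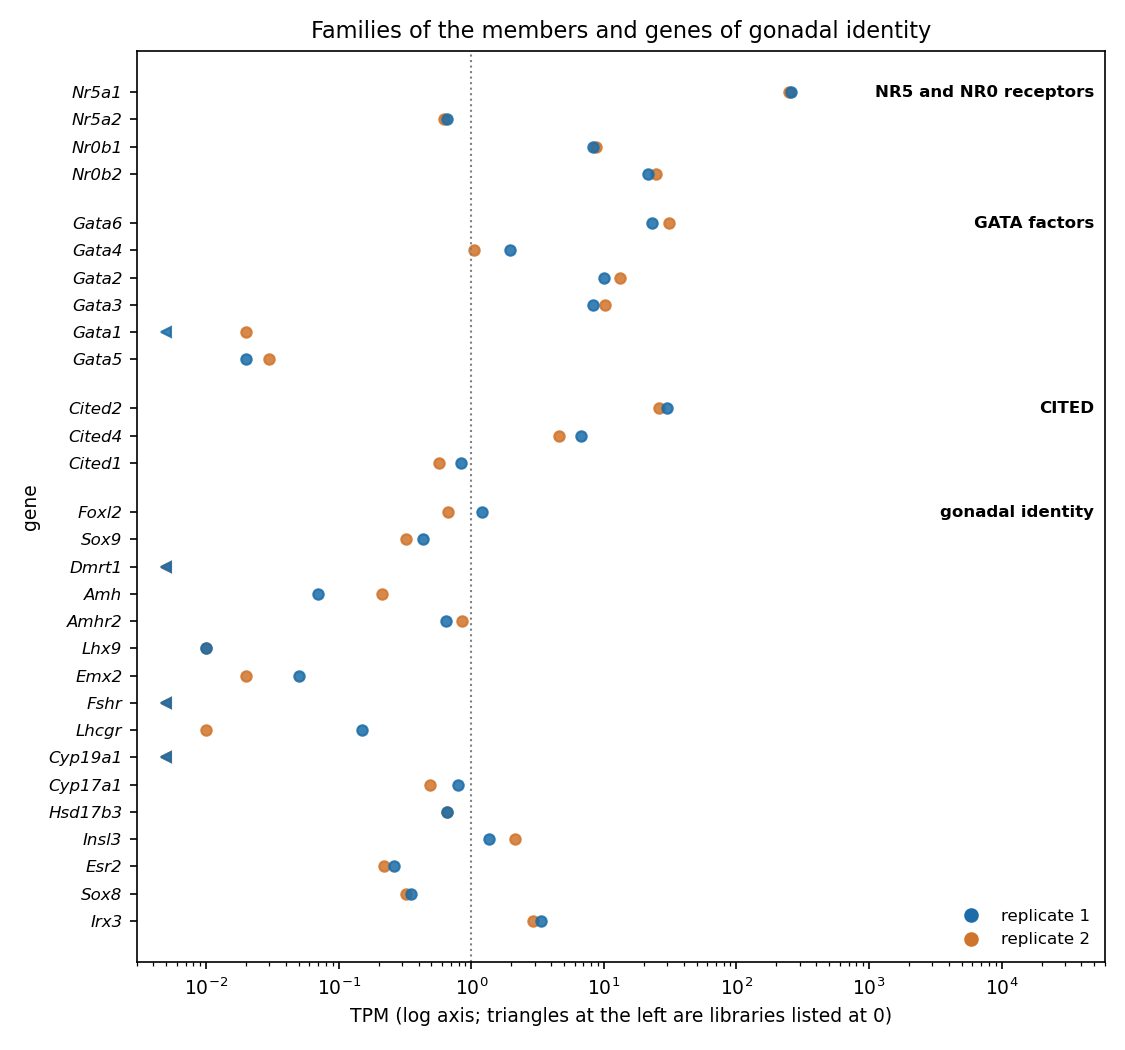
TPM (log axis) in replicates 1 and 2 of the NR5 and NR0 receptors, the GATA and CITED families and 16 genes of gonadal identity, with the dotted line at 1 TPM and triangles for libraries listed at 0. Nr5a1 and Gata6 lie far right of Nr5a2 and Gata4, and among the gonadal genes only Irx3 and Insl3 lie right of the line in both animals.

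Most genes that define gonadal cells were under 1 TPM. Of 16 such genes, 2 reached 1 TPM in both animals: Irx3 at 3.37 and 2.92 TPM and Insl3 at 1.36 and 2.14 TPM in replicates 1 and 2. Irx3 was thus above Gata4, Wt1 and Nr5a2 in both animals, and Insl3 above Wt1 and Nr5a2. Insl3 rests on 27.6 and 36.9 counts in replicates 1 and 2. In the index-based table it had 0.805 TPM in replicate 1, under Wt1 at 0.983 TPM. Foxl2, the factor of granulosa cells, had 1.21 TPM in replicate 1 and 0.670 TPM in replicate 2, from 149 and 70 counts. Dmrt1, a testis factor, Fshr, the receptor for follicle-stimulating hormone, and Cyp19a1, the aromatase, had 0 counts in both animals in the gene table. The index-based table gave Cyp19a1 0.0358 and 0.0334 TPM in replicates 1 and 2. Of the 5 germ cell genes none reached 1 TPM in both animals, with Ddx4 at 0.330 and 0.420 TPM and Zp3 at 0 in both.

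Markers of other cells that use these factors were measured too. Of 7 kidney markers 5 were at 0 in both animals in the gene table, the podocyte gene Nphs1 among them. The list summed to 0.460 and 0.440 TPM in replicates 1 and 2. The index-based table gave Nphs1 0.0199 and 0.0535 TPM. Of 6 pancreas acinar markers 4 were at 0, Ptf1a among them, and Cela1 alone passed 1 TPM. Mesothelium, a lining that also expresses Wt1, had 3 of 6 markers at 1 TPM or more in both animals, with sums of 8.06 and 6.99 TPM and Msln at 2.45 and 1.92 TPM. Capsule and fibroblast markers passed 1 TPM in 8 of 8 cases, with sums of 180 and 132 TPM. Liver markers summed to 7.13 TPM in replicate 1 and 23.0 TPM in replicate 2. Of the 6, only Alb and Apob, which encode albumin and an apolipoprotein, passed the count minimum of the rule given further on. Both were called lower in replicate 1. The same rule called Col3a1 of the capsule and fibroblast list higher in replicate 1. It did so too for Adipoq, Fabp4 and Ucp1 of the adipocyte list, Acta2 and Myh11 of smooth muscle and Cd163 of macrophages. The part of mesothelium, capsule or liver RNA in the levels of Wt1, Gata4 and Nr5a2 was not tested.

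The transcripts of Gata4, Wt1 and Nr5a2 had no stable order. The highest transcript in the alignment-based table was Gata4-202 in replicate 1 and Gata4-201 in replicate 2, Wt1-201 and Wt1-205, and Nr5a2-202 and Nr5a2-201. For Wt1 this was nearly a tie. Wt1-201 and Wt1-205 each had 0.35 TPM in replicate 1, or 34.48% and 34.45%, and Wt1-205 had more counts. In replicate 2 Wt1-205 held 31.69% and Wt1-203 held 31.68%. Nr5a2-201 and Nr5a2-202 held 36.5% and 46.9% of the TPM in replicate 1 and 31.3% and 19.8% in replicate 2. Of the 9 genes, 6 had the same highest transcript in both animals by TPM, and both tables named the same one. Ranked by expected counts or in the index-based table, 8 did, Gata4 being the exception. Nr0b1 counts in each of these totals by construction, as it has a single annotated transcript.

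Wt1 carries a well-known splice choice at the end of an exon that adds or leaves out the residues KTS between zinc fingers, and forms with and without them bind differently in the cell. The annotated donor sites lie 9 bases apart, and the added bases (chromosome 2, 105170010 to 105170018, plus strand, mm10) are shown in capitals within a 30-base stretch of the GENCODE M21 transcript.
Wt1 with the added bases: ccaggactcatacagGTAAAACAAgtgaaa
Of 9 annotated Wt1 transcripts 5 hold them and 2 have the shorter exon. Transcripts with the bases held 77.6 counts in replicate 1 and 46.0 in replicate 2, and those without held 2.16 and 16.2. The index-based table gave 77.8 and 57.9 counts with the bases and 3.84 and 13.7 without. These estimates come from few counts and from other differences between the transcripts as well, so the balance of the forms was not resolved.

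Zfpm1 and Zfpm2, the GATA cofactors, had intermediate levels. Zfpm1 (ENSMUSG00000049577.15, chromosome 8, 122282141 to 122337251, plus strand) had 5.96 TPM in replicate 1 and 6.52 TPM in replicate 2, from 611 and 649 counts. Zfpm2 (ENSMUSG00000022306.9, chromosome 15, 40655035 to 41104592, plus strand) had 2.97 and 4.00 TPM, from 522 and 586 counts. Zfpm1 exceeded Zfpm2 by ratios of 2.01 and 1.63 in replicates 1 and 2. The deposited intervals of the cofactors, 5.21 to 7.82 and 6.07 to 8.65 TPM for Zfpm1 and 2.68 to 3.23 and 3.59 to 4.30 TPM for Zfpm2, did not overlap in either animal.

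The transcript shares of Zfpm1 varied between the tables, and those of Zfpm2 less so. The annotated gene Gm20388 runs on the same strand across the whole of Zfpm1 and had 872 and 718 counts in replicates 1 and 2, and reads in shared exons may be divided between them. The coding transcript Zfpm1-201 held 76.5% of the TPM in replicate 1 and 90.1% in replicate 2 of the alignment-based table, and 72.4% and 62.2% in the index-based table, with short processed transcripts making up the rest. Zfpm2-201, a coding form, held 70.4% and 69.3%, and a mean of 71.3% ± 0.586 (SD, n = 2) in the index-based table, and retained-intron transcripts held 17.5% and 19.2% in replicates 1 and 2. Of 7 markers of the blood lineages in which ZFPM1 works with GATA1, 3 reached 1 TPM in both animals: Hba-a1, Alas2 with 2.75 and 2.5 TPM and Pf4 with 3.15 and 1.05 TPM in replicates 1 and 2. Itga2b had 0.990 and 1.55 TPM, Gata1 had 0 and 1 counts and Klf1 had 2 and 0 counts. Gp9 was at 0 in both animals in the gene table and at 0.0298 and 0.0349 TPM in the index-based table. The list summed to 293 and 223 TPM, of which Hba-a1 held 286 and 218 TPM. Their part in the level of Zfpm1 was not tested.

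**Figure D4:**
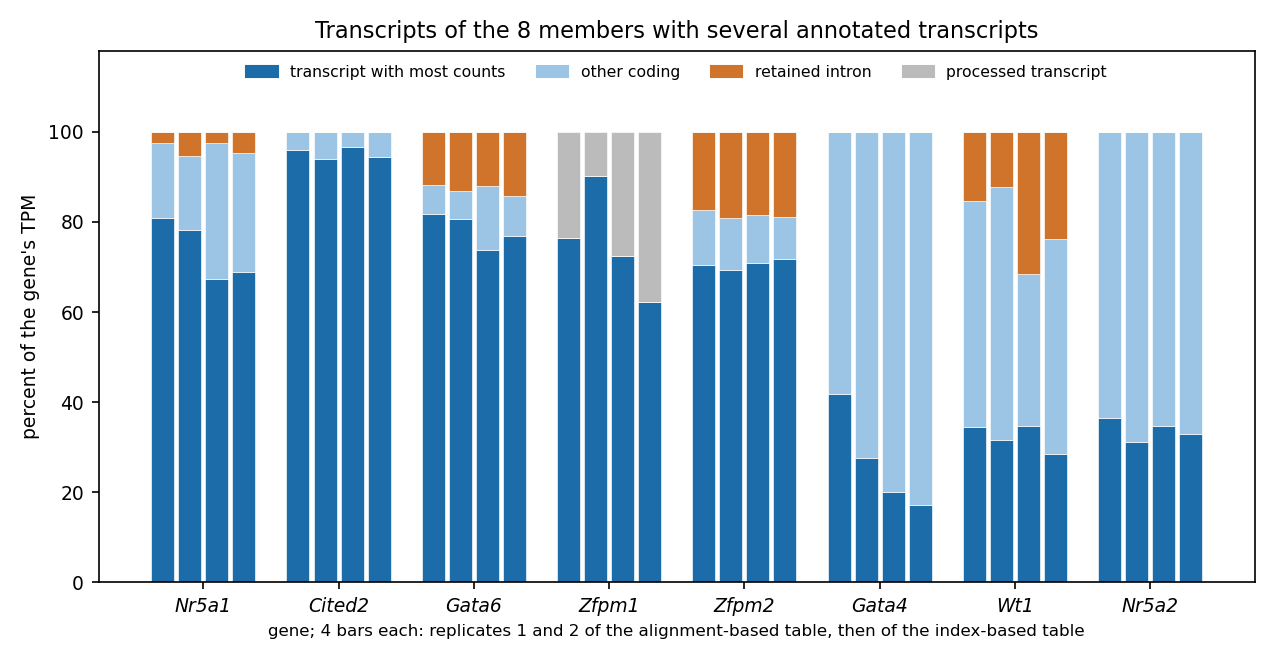
Percent of each gene's TPM held by its transcripts for the 8 genes with several, in replicates 1 and 2 of the alignment-based and then of the index-based table. Nr5a1, Cited2, Gata6 and Zfpm2 are led by the same transcript in every bar, at 67% or more, and Zfpm1 at 62% or more. Gata4, Wt1 and Nr5a2 are split among several transcripts.

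None of the 9 genes had a ratio of 2-fold or more between the animals. A gene was called when the absolute log2 ratio of TMM-scaled counts was 1 or more, the mean expected count was 100 or more and the deposited TPM intervals did not overlap. Of 7 genes that passed the count minimum 0 were called, against 148 of 12645 genes or 1.17% in the whole table. Wt1 and Nr5a2 fell under the minimum. By direction, 0.656% of all genes were called higher and 0.514% lower in replicate 1. No member was called by other rules either, against backgrounds of 5.06% at 1.5-fold, 1.31% without the intervals, 1.19% with DESeq2 size factors, 1.48% on deposited TPM and 1.37% on index-based counts, nor, with all 9 genes tested, against 3.02% at a count minimum of 10 and 2.55% with none. With the intervals alone and no limit on the fold, 4 of the 7 did not overlap, against 27.4% of all genes tested.

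Those 4 were split in direction, 2 higher and 2 lower in replicate 1, where 9.86% and 17.5% of all genes were. Nr5a1 and Cited2 were higher in replicate 1, with log2 ratios of 0.14 and 0.29 and counting intervals of 0.11 to 0.16 and 0.20 to 0.39. The ratio of Nr5a1 depended on the scaling: it was 0.05 on deposited TPM, 0.06 without TMM factors and 0.17 with DESeq2 size factors. Gata6 and Zfpm2 were lower in replicate 1, with -0.34 (-0.42 to -0.27) and -0.33 (-0.50 to -0.15). Ratios at least as far from 0 as that of Gata6 were seen in 18.5% of the genes tested, and as that of Nr5a1 in 53.3%. Nr0b1 had 0.01 (-0.17 to 0.19), Zfpm1 -0.25 (-0.41 to -0.09), Wt1 0.15 (-0.30 to 0.62) and Nr5a2 0.36 (-0.13 to 0.86).

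Gata4 had the largest ratio of the 9. Its log2 ratio was 0.85 with a counting interval of 0.46 to 1.25, and 2.22% of the genes tested lay as far from 0 or farther. Its deposited TPM intervals, 1.58 to 2.61 in replicate 1 and 0.870 to 1.70 in replicate 2, overlapped. Several lists of other cell types were higher in the same animal: all 5 adipocyte markers, which summed to 958 TPM in replicate 1 and 506 TPM in replicate 2, 7 of 8 capsule and fibroblast markers and all 3 smooth muscle markers that passed the count minimum. So were 3 of 3 mesothelium markers tested, 7 of 7 chromaffin and 5 of 5 endothelium markers, with median log2 ratios of 0.49, 0.30 and 0.13. The 2 gonadal identity genes tested also lay above 0, with a median of 0.60. Other lists were not higher in that animal. Of the cortex markers 2 lay above 0 and 3 below, with a median of -0.07. Of the macrophage markers 3 lay above and 2 below, with a median of 0.02, and the 2 liver markers tested lay below 0. Of all 12645 genes tested, 6673 lay above 0. The part of these cell types in the ratios of Gata4 and Cited2 was not tested.

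**Figure D5:**
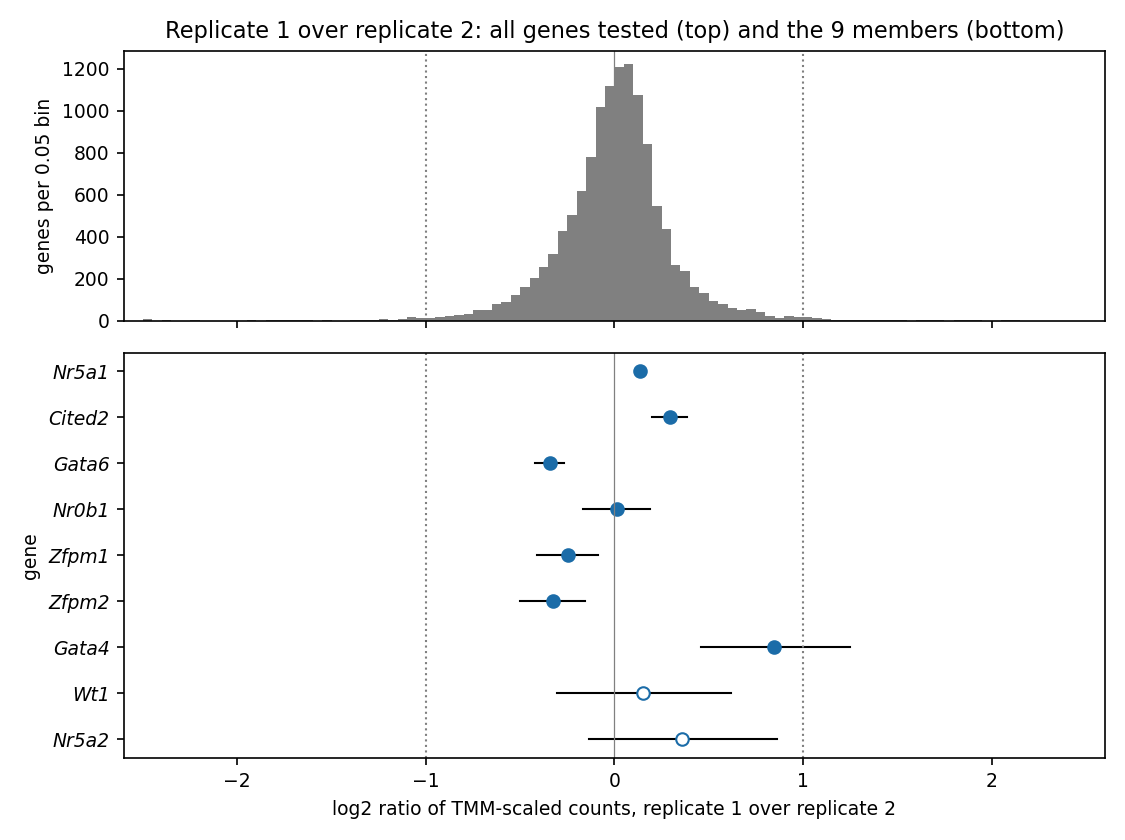
Top, log2 ratios of replicate 1 over replicate 2 for the 12645 genes whose mean expected count reached 100, values beyond 2.5 drawn at the edge. Bottom, the 9 factors with their 95% counting intervals, open points for the 2 under the count minimum, and dotted lines at a 2-fold difference: all 9 points lie between the lines, Gata4 nearest at 0.85.

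Adrenal genes listed as targets of NR5A1 were detected over a wide range of levels. The list leaves out Nr0b1, described above, and targets placed with the gonadal genes, such as Cyp17a1, Amh and Cyp19a1. Cyp17a1 had 0.790 and 0.490 TPM in replicates 1 and 2. Amh had 0.0700 and 0.210 TPM, and Cyp19a1 had 0 in both in the gene table. All 12 on the list reached 1 TPM, with a median of 743 ± 22.2 TPM (SD, n = 2), and none was called different. The highest were Hsd3b1, Cyp21a1, Star and Cyp11b1, which encode steroid enzymes and the carrier of cholesterol into mitochondria. The lowest was Inha, the inhibin alpha subunit shared with the gonad, with 7.85 TPM in the first animal and 10.9 TPM in the second. The median log2 ratio was -0.03, against 0.01 over all genes tested, while Nr5a1 itself had 0.14.

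Other transcription factors of adrenal development were mostly detected. Of 10 on the list 8 reached 1 TPM in both animals, and none was called. Hoxb9, a posterior Hox gene, had 78.1 TPM in replicate 1 and 65.3 TPM in replicate 2. Nr2f2, a receptor of mesenchymal and capsule cells, had 37.3 and 36.4 TPM and Meis1 18.2 and 18.4 TPM. Sall1 was under 1 TPM, with 2 counts in each animal. Of the 8 genes that passed the count minimum, 7 had a log2 ratio above 0, with a list median of 0.29.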

How the data were processed

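For both libraries, genes and transcripts were quantified by the authors from transcriptome alignments, and transcripts a second time from reads and a transcript index, in assembly mm10 with annotation M21, per the notes deposited with the files. Those sources name no program. Expected counts, TPM and FPKM were deposited by the authors, as were the percent of a gene's TPM held by a transcript and the TPM intervals, whose level is not given. TPM was scaled by the authors over all features, tRNAs and spike-ins included, and nuclear protein-coding genes held 35.4% and 35.8% of it. The deposited notes do not say how reads that carry CAST alleles were handled, which could lower the values of genes with many strain differences.

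Gene identifiers were named from GENCODE M21, which matched all 55536. Expected counts were rounded, and TMM factors came from edgeR 4.0.16 (R 4.3.3) over 16966 genes kept by its filter, with DESeq2 1.42.0 as the alternative. Ratios are replicate 1 over replicate 2 of scaled counts, 0.5 being added to each. No test was run, as each side is 1 library, and the spread between the libraries may be technical. Intervals of ratios are exact (Clopper-Pearson) at 95%. Promoters were matched by symbol in a RefSeq table (GRCm38.p6). The work ran in Python 3.11.15 (with matplotlib 3.10.9, scipy 1.17.1, pandas 2.3.3 and numpy 2.4.6), and the ratio step was tested on simulated data. The genes, lists and rules were chosen with earlier results of these data known. Beyond the 9 genes, the text names up to 4 of the highest members of a list, the members of the GATA, CITED, NR0 and NR5 families, genes that overlap a member, and some list genes chosen after their values were seen. Some genes of the lists are not reported here. The resemblance of other genes' patterns was not computed, since 2 libraries of 1 group give none. Alternatives were other units, tables, limits, scalings and pseudocounts, and each library left out.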

Additional observations from a re-analysis of the deposited data

How the results depend on the processing

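No paired analysis was possible because there is 1 group. Of the 9 genes, 8 reached 1 TPM in both animals, and leaving out either replicate gave 8, the range being 8 to 8. With a limit of 5 TPM the count was 5, and in the index-based table it was 6, because Gata4 and Wt1 fell under 1 TPM in a library there. It was 9 at a limit of 0.5 TPM and with TPM rescaled over nuclear protein-coding genes, where Nr5a2 had 1.84 and 1.73 TPM. Under 7 other settings of the call rule, 0 of the genes were called. With the TPM intervals alone, a rule added after the data had been seen, 4 were. Over all genes the calls numbered 148 by the main rule, 640 at 1.5-fold, 536 at a count minimum of 10, 667 with no count minimum and 3461 with the intervals alone. The mean ratio of Nr5a1 to Nr5a2 was 400.1, against 343 in the index-based table and 156 with 1 TPM added to both genes; the last lowers it by construction. That of Gata6 to Gata4 was 20.7 and ranged from 11.8 to 29.7 as either animal was left out. TPM rescaled over nuclear protein-coding genes raised all 9 levels. The log2 ratios of Nr0b1 and Wt1 changed sign with the scaling, to -0.06 and -0.07 on deposited TPM, and those of the other 7 genes kept theirs under every scaling and pseudocount tried. At about 100 counts or fewer, depth limits the isoforms of Wt1 and Nr5a2.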

Other observations

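Coregulators of NR5A1 were present at moderate levels. All 12 on the list reached 1 TPM in both animals, with a median of 24.0 ± 3.82 TPM (SD, n = 2), and none was called different. Ncor1, a corepressor gene, had 69.7 TPM in replicate 1 and 74.2 TPM in replicate 2. Crebbp and Ep300, which encode the acetyltransferases that bind CITED2, had 18.4 and 17.7 TPM and 21.4 and 26.8 TPM in replicates 1 and 2. Usf2, an E-box factor, had 44.5 and 39.5 TPM.

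Nr5a1os, the annotated antisense gene that overlaps the 5′ end of Nr5a1 by 1867 bases, had 20 counts in replicate 1 and 16 in replicate 2, or 0.620 and 0.590 TPM. It overlaps only the region of the distal first exon.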
